A study of Homo sapiens with 6 samples.

Results

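PBSHMS, a line made by fusing blebbishields of the RT4 human bladder cancer line with human blood mononuclear cells, was compared with RT4v6, RT4 cells that had been passaged serially in mice 6 times. Blebbishields form when blebs of dying cells fuse, and they can grow into live cells again. These are 2 of the 6 samples of the series, each hybridised to 1 Illumina HumanHT-12 version 4 bead array, and they were chosen by their labels. Both were untreated live cells grown in supplemented MEM with fetal bovine serum, and both descend from RT4, so neither is the parental line. The other 4 arrays hold parental RT4 (RT4P), its blebbishields and spheres after cisplatin with lithium chloride, and RT4P-BSE2, which had come through the blebbishield program 2 times. The labels give 1 mouse-passaged line and 1 fusion line, do not say how many animals or donors were used, and state for RT4v6 an aim of enriching cancer stem cells. With 1 array per line there is no replicate check, so no difference below carries a test or an error, and each one describes these 2 RNA samples.

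The comparison covered 13818 genes, a gene being included when either array detected it at a p-value under 0.01. Of these, 11639 were detected on both arrays, 761 on the PBSHMS array only and 1418 on the RT4v6 array only. All levels below are background-corrected, quantile-normalized log2 signals, and all differences are PBSHMS minus RT4v6. Where a gene was undetected on its dim array, that side was raised to the lowest detected value of the array, and the fold is given as "at least". Mean raw signal was 349.5 for PBSHMS and 355.6 for RT4v6, within the 263.2 to 389.2 of all 6 arrays. As a gauge of technical spread, the SD between the differences given by separate probes for the same gene was 0.27 on the log2 scale, which is not a replicate error.

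Urothelium, the lining of the bladder, is marked by uroplakins in its outer luminal cells and by keratins and TP63 in deeper basal cells. Epithelial cells hold each other through E-cadherin, while mesenchymal and muscle-like cells use N-cadherin and contractile actin bundles. Interferons are secreted signals that switch on a broad set of antiviral genes through factors that include STAT2 and IRF9. Blood mononuclear cells are lymphocytes and monocytes, recognised by markers such as CD45 (PTPRC), CD3 and CD14.

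Both lines carried the markers of bladder epithelium, and most blood cell markers were undetected. Of 15 bladder epithelial markers, 14 were detected on both arrays, the exception being KRT13. Of 18 pan-leukocyte markers, 4 were measured. PTPRC, CD53, LAPTM5, CORO1A and SPI1 were among the 14 that were detected on neither array. The T cell list had 3 of 21 markers measured, the monocyte list 7 of 24, the NK list 2 of 16 and the B cell list 1 of 14. The CD3 chains, CD4, CD8A, CD14, MS4A1 and NKG7 were undetected on both arrays. None of the 13 measured T, NK, B and monocyte markers was at least 2-fold higher in PBSHMS.

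The 4 leukocyte markers that were measured are also carried by the other RT4 samples. LCP1, the actin-bundling protein L-plastin, read 11.67 in PBSHMS and 8.47 in RT4v6, a 9.16-fold difference, but RT4P read 11.58 and RT4P-BSE2 11.02. HCLS1, a cortactin-like adaptor of blood cells, read 9.12 against 10.13 and was thus 2.01-fold lower in PBSHMS. ARHGDIB, a regulator of small GTPases, and ITGB2, the shared chain of the leukocyte integrins, differed by 0.08 and −0.03. The fusion line thus had no marker on the pan-leukocyte list that was detected in it and undetected in RT4v6. HBA2, an alpha globin gene, was detected in PBSHMS at 5.27 and not in RT4v6, and its fold was only at least 1.12.

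PBSHMS and RT4v6 differed at 2-fold or more in 828 genes, or 5.99% of those measured. The signal was at least 2-fold higher in PBSHMS for 483 genes (3.5%) and at least 2-fold lower for 345 (2.5%). These shares are the background for the list counts below. At 4-fold or more, 91 genes (0.659%) were higher and 57 (0.413%) were lower. For 97 of the higher and 72 of the lower genes the fold is a bound. These counts depend on how dim signals are handled: without background correction they became 214 higher and 138 lower, and with the authors' processed values 226 and 145. Where a gene at 2-fold had a second detected probe, 206 of 218 such probes had the same sign.

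**Figure D1:**
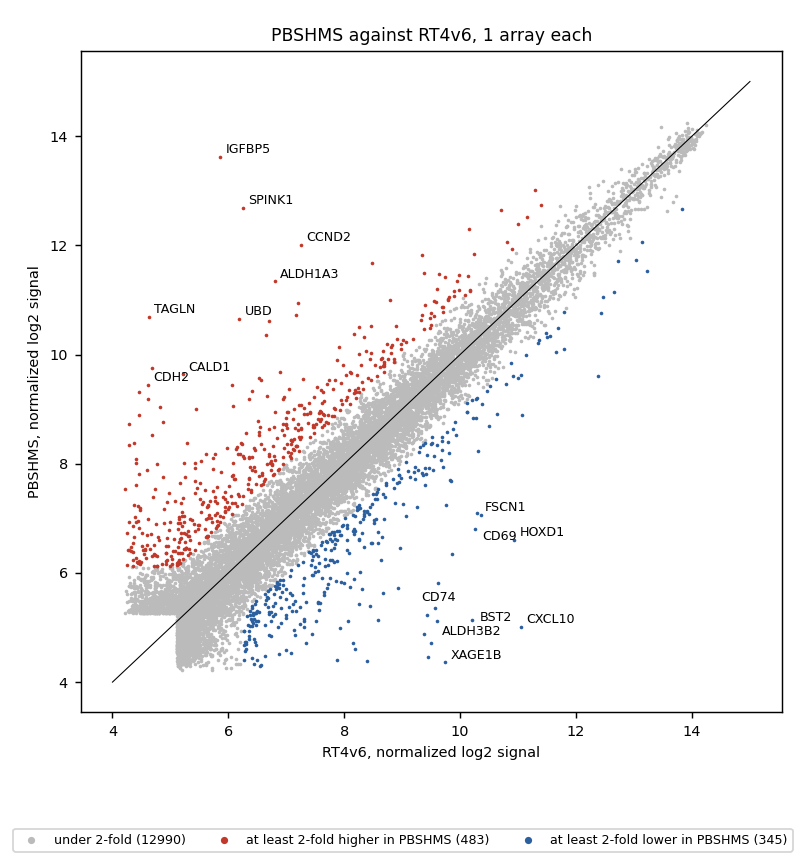
Normalized log2 signal of each of 13818 genes in PBSHMS (y axis) against RT4v6 (x axis), 1 array each, with the line of equality and a label on 16 genes. The 483 red genes lie at least 2-fold above the line and the 345 blue genes at least 2-fold below, and genes near the lower left edges are undetected on one side.

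RT4P and RT4P-BSE2, which did not choose these genes, showed which of the lines stood apart. For 198 of the 483 higher genes both arrays lay nearer to RT4v6, so PBSHMS stood apart, and for 173 both lay nearer to PBSHMS, so RT4v6 stood apart. The other 112 were between. Among the 345 lower genes the numbers were 194 with PBSHMS apart, 67 with RT4v6 apart and 84 between. The rule required no margin, so genes with RT4P near the middle are counted with 1 line too. CDC45, counted as PBSHMS apart, read 9.96 in RT4P, between 10.48 in PBSHMS and 9.48 in RT4v6. Apart from those between, the higher genes were by this rule a near-even mix of the 2 kinds. Among the lower genes PBSHMS was more often the line further from RT4P and RT4P-BSE2.

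The widest difference was in IGFBP5, a secreted binding protein of insulin-like growth factors. Its signal was 13.62 in PBSHMS and 5.86 in RT4v6, a 217-fold difference, with RT4P at 10.87 and RT4P-BSE2 at 11.70. SPINK1, an inhibitor of trypsin made by many epithelial tumours, read 12.69 and 6.24, an 87.1-fold difference, beside 10.80 in RT4P and 11.91 in RT4P-BSE2. CCND2, the G1 cyclin D2, read 12.01 and 7.25, 27.0-fold apart, with 11.77 in RT4P. For these 3 genes RT4v6 was the low sample and the other live RT4 lines were nearer to PBSHMS.

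Among the live lines RT4v6 was also the low one for a further set of the widest differences. ALDH1A3, an enzyme that makes retinoic acid, read 11.34 and 6.80, 23.4-fold apart, with RT4P at 9.92. UBD, the ubiquitin-like protein FAT10 that targets proteins for degradation, read 10.65 and 6.19, 22.1-fold apart, with RT4P at 9.80. OLR1, a scavenger receptor for oxidized lipoprotein, read 10.35 and 6.64, and NUAK1, a kinase related to AMPK, read 10.61 and 6.70. Their folds were 13.1 and 15.1. SPRR3, a cornified envelope protein, read 8.99 in PBSHMS, 5.45 in RT4v6 and 9.08 in RT4P, so the fusion line and the parent were close and RT4v6 was 11.7-fold lower than PBSHMS.

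PBSHMS itself was the high sample for another set. CDH2, N-cadherin, read 9.44 in PBSHMS and was undetected in RT4v6, at least 20.1-fold apart, with 5.28 in RT4P and 6.14 in RT4P-BSE2. HSPB8, a small heat shock chaperone, read 9.31 and was at least 18.3-fold higher. SPOCK1, an extracellular matrix proteoglycan, read 9.03 and was at least 15.1-fold higher, with 5.40 in RT4P. CPA4, a secreted carboxypeptidase, read 8.37 in PBSHMS and was undetected in RT4v6, RT4P and RT4P-BSE2, so it was found in the fusion line alone among these 4 live lines, at least 9.57-fold above RT4v6.

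The widest difference in the other direction was in CXCL10, a chemokine that draws activated T cells. It read 11.05 in RT4v6 and was undetected in PBSHMS, at least 55.3-fold lower, with 8.45 in RT4P and 11.82 in RT4P-BSE2. ALDH3B2, a lipid aldehyde dehydrogenase, read 9.60 in RT4v6 and was undetected in PBSHMS, at least 20.3-fold lower, with 7.96 in RT4P. HOXD1, a homeobox factor of body patterning, read 6.61 in PBSHMS, 10.93 in RT4v6 and 10.43 in RT4P, a 20.0-fold difference. PADI3, which turns arginine into citrulline in epithelial proteins, read 5.81 and 9.62, 14-fold apart. PBSHMS was the low sample for each of these 4 genes.

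RT4v6 alone carried the cancer-testis antigen XAGE1. XAGE1B read 9.74 in RT4v6 and was undetected in the other 5 samples, at least 22.3-fold lower in PBSHMS. XAGE1A read 9.49 and was at least 18.8-fold lower. These are near-identical copies on the X chromosome whose probes can share transcripts, so they may be 1 signal. CD69, a lectin receptor best known on activated lymphocytes, read 10.25 in RT4v6 and 6.81 in PBSHMS, a 10.9-fold difference. RT4P at 8.37 and RT4P-BSE2 at 8.48 lay near the middle, only slightly nearer to PBSHMS. MYRIP, a linker of Rab27 vesicles to myosin, read 8.58 in RT4v6, 5.84 in RT4P and was undetected in PBSHMS, at least 10.0-fold lower.

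**Figure D2:**
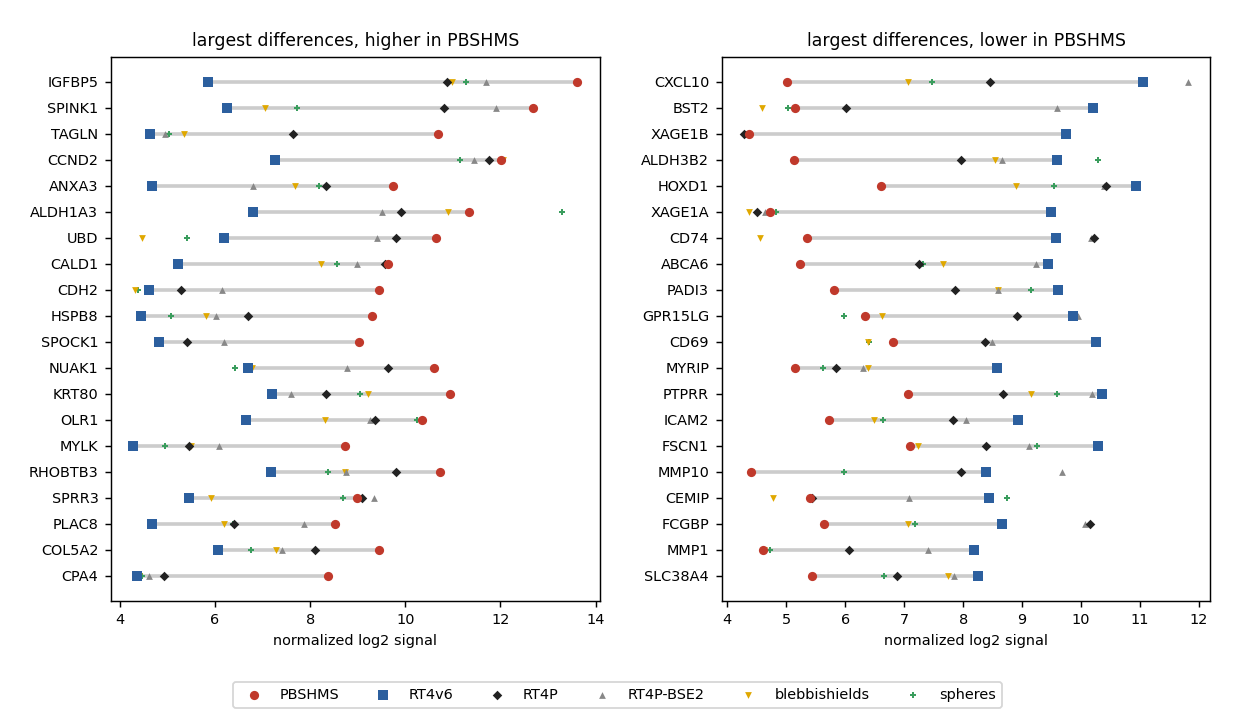
Normalized log2 signal of the 20 genes with the widest difference in each direction (left, higher in PBSHMS; right, lower in PBSHMS) on all 6 arrays, with a grey bar joining PBSHMS (red circles) and RT4v6 (blue squares). RT4P and RT4P-BSE2 lie nearer to PBSHMS than to RT4v6 for IGFBP5, SPINK1 and CCND2, with PBSHMS the highest array for IGFBP5 and SPINK1. They lie nearer to RT4v6 for HOXD1, CD74 and PADI3, but for PADI3 RT4P, at 7.87, is close to the middle.

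Interferon-stimulated genes were lower in the fusion line. Of 33 measured members, 17 were at least 2-fold lower in PBSHMS, against 2.5% of all genes, and 1 was higher. The list, like the others, was chosen with earlier results of these data known, so its count is a description. The list's median difference was −1.0 against 0 over all genes, and 27 of 33 members lay below 0. Without background correction the median was −0.60 with 7 members at 2-fold lower, and with the authors' processed values it was −0.61. The RT4v6 array detected 32 of the 33 members and the PBSHMS array 28, so some were included through RT4v6 alone. Of the 17 members detected on all 6 arrays, 7 were at least 2-fold lower and 0 higher, with a median of −0.92. Among the 18 members at 2-fold, PBSHMS stood apart for 14, RT4v6 for 0 and 4 were between. Among the live lines the fusion line was thus the low one for most of these members, and RT4P-BSE2 was the high sample of the series for most members.

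BST2, the membrane protein tetherin that holds budding virus at the cell surface, had the widest gap on the list. It read 10.21 in RT4v6, 9.59 in RT4P-BSE2 and 6.01 in RT4P and was undetected in PBSHMS, at least 30.9-fold lower than RT4v6. OAS2, which makes the 2′-5′ oligoadenylates that activate an antiviral RNase, read 8.23 in PBSHMS, 10.31 in RT4v6 and 10.23 in RT4P, a 4.23-fold difference. Its relatives OAS3 and OAS1 were 2.70-fold and 2.66-fold lower. IFI44, a cytoplasmic interferon-induced protein, read 5.73 and 7.71, 3.94-fold apart.

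IFI27 and IFI6, interferon-induced mitochondrial proteins, were lower by at least 3.67-fold and by 3.03-fold. ISG20, an RNA exonuclease, was at least 2.87-fold lower. MX1 and MX2, dynamin-like GTPases that trap viral particles, were lower by 2.31-fold and at least 2.26-fold. TRIM22, an antiviral ubiquitin ligase, went the other way, with 7.16 in PBSHMS, 5.67 in RT4P and no detection in RT4v6, at least 4.14-fold higher. IFIT2, IFIT3, HERC5, USP18 and SAMD9 differed by 0.55, 0.10, 0.22, 0.58 and 0.05, so these members of the same list were not lower in PBSHMS. IFIT3 had 3 probes, 2 of which pointed opposite to the one used.

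Many promoters of these genes hold a shared motif. The 5 shown are examples that hold it, and they include BST2 and CXCL10, the widest gaps on the interferon and chemokine lists. Sequences are from RefSeq, assembly GRCh38.p14, 5′ to 3′ on the strand of the gene, with capitals on matches, on either strand, to the core of the interferon-stimulated response element, spelled GAAA, then any 2 bases, then GAAA. Overlapping matches are joined. The stretches are chr19:17405725-17405780 (minus) for BST2, chr14:94110608-94110670 (plus) for IFI27, chr1:27672256-27672368 (minus) for IFI6, chr15:88638927-88638976 (plus) for ISG20 and chr4:76023689-76023738 (minus) for CXCL10.
BST2: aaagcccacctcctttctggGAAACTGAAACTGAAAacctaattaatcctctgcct
IFI27: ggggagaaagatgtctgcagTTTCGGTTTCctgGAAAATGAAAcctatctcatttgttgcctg
IFI6: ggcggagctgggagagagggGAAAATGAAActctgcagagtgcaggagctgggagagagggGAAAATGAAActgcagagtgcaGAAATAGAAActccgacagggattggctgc
ISG20: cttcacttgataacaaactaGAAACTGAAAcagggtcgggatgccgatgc
CXCL10: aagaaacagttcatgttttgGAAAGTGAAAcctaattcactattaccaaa
BST2 held 2 overlapping matches, IFI27 2, IFI6 3, and ISG20 and CXCL10 1 each.

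Promoter sequences were available for 26 of the 33 measured members, OAS2 and TRIM22 not among them. The motif was found in 18 of the 26 (69.2%), against 996 of 27305 promoters of the same length (3.65%). Each promoter reached from 250 bases before the start of the gene to 50 after it. The motif was in 10 of the 14 promoters of genes at least 2-fold lower (71.4%) and in 8 of the 12 promoters of members under 2-fold (66.7%). Members with and without a 2-fold difference thus held the motif at a similar share, and a match is a description of sequence, not a measured binding site.

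The receptors and factors that carry the interferon signal differed less. At 2-fold, 3 of 22 measured genes were lower in PBSHMS and 0 higher, around a median of −0.23. IFNGR2, a chain of the interferon gamma receptor, read 10.49 and 11.68, a 2.29-fold difference. IFNAR1, a chain of the type I receptor, read 6.72 and 7.74, 2.04-fold apart. DHX58, an RNA helicase related to RIG-I, was 2.28-fold lower. STAT2 and IRF9, which join in the complex that binds interferon-stimulated promoters, differed by −0.51 and −0.59. IFNGR2 and IFNAR1 lie, with IFNAR2 at −0.61, IL10RB at −0.59, MX1 and MX2, in a stretch of chromosome 21 where most neighbours were also lower, described below. PARP9, a list member 2.15-fold lower, lies at the end of a like stretch of chromosome 3. Of the 17 lower list members, 14 lie outside these stretches. The part of the stretches in the interferon result was not tested.

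**Figure D3:**
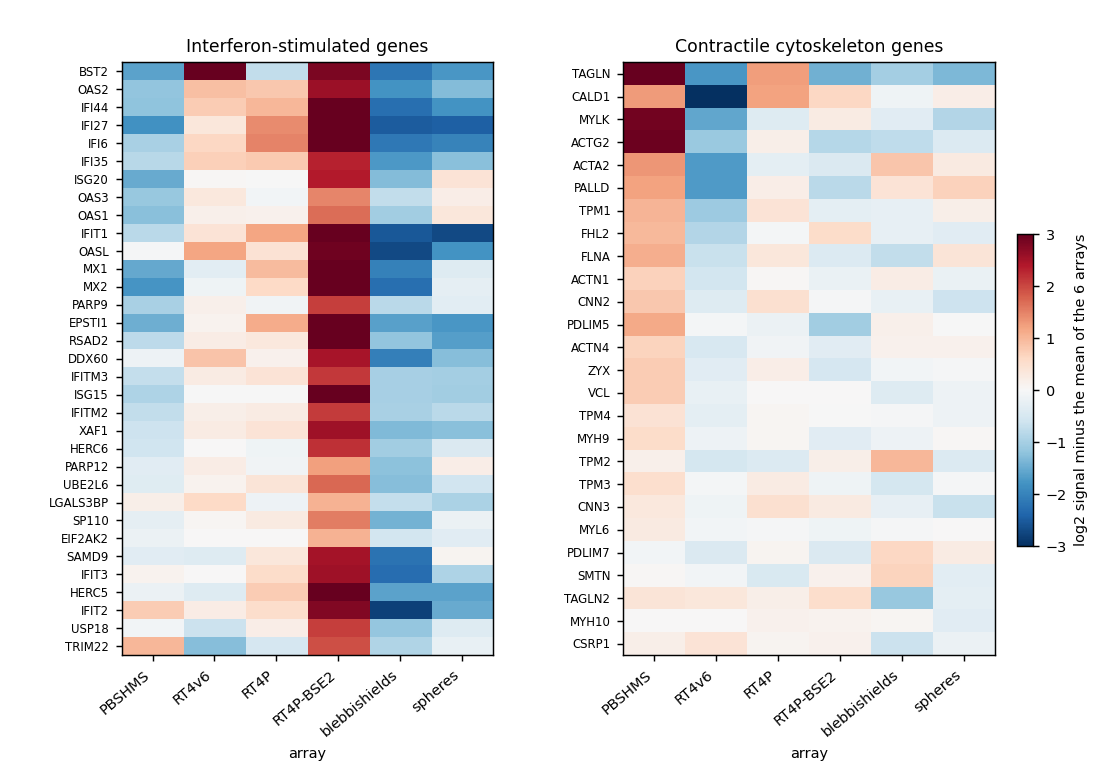
Log2 signal minus the mean of the 6 arrays for the 33 measured interferon-stimulated genes (left) and the 26 measured contractile cytoskeleton genes (right), 1 row per gene and 1 column per array, with colours capped at 3. PBSHMS is mostly blue on the left and red on the right, and RT4P-BSE2 is mostly deep red on the left.

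Antigen presentation genes were led by CD74. CD74, the invariant chain that guides MHC class II assembly, read 5.36 in PBSHMS, 9.57 in RT4v6 and 10.23 in RT4P, an 18.6-fold difference. It was the only one of 5 measured class II pathway genes at 2-fold, and the median of the 5 was −0.78. Alternative settings moved this median to as little as −0.30, at a detection p-value under 0.05, and to −0.36 without background correction. For MHC class I presentation, 1 of 18 genes was at 2-fold, with a median of −0.25. That gene was TAPBP, the peptide-loading protein tapasin, at 8.95 and 10.11, and another of its probes pointed the other way. PSMB9 and PSMB8, the immunoproteasome subunits, differed by −0.85 and −0.67.

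Chemokines and cytokines were mixed, 3 of 18 being higher at 2-fold and 4 lower, around a median of 0.10. Beside CXCL10, CCL5 and CCL20, attractants of lymphocytes, were 2.50-fold and 2.20-fold lower in PBSHMS. CXCL1, a neutrophil attractant, read 6.67 in PBSHMS and was undetected in RT4v6, at least 2.93-fold higher, with 8.13 in RT4P. IL1B, the inflammatory cytokine interleukin-1 beta, read 8.90 and 7.31, 3.02-fold apart, with 8.93 in RT4P. IL32, another inflammatory cytokine, read 7.58, 5.80 and 8.07. For the 3 higher genes RT4v6 was the lowest of the 4 live lines. Of 24 NF-kB and TNF family genes, 3 were higher and 1 lower. LTB, lymphotoxin beta, read 9.37 and 7.04, a 5.05-fold difference, and TNFSF10, the death ligand TRAIL, was at least 3.69-fold lower in PBSHMS, with RT4P at 6.97.

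Contractile cytoskeleton genes were higher in the fusion line. PBSHMS was at least 2-fold higher for 14 of the 26 measured members, against 3.5% of all genes, and lower for 0, with a median of 1.14 and 25 of 26 above 0. This list was assembled after TAGLN, CALD1 and MYLK had been seen among the widest differences, so its count, too, is a description only. With no detection filter its median was 0.71. PBSHMS stood apart for 8 of the 14, RT4v6 for 1 and 5 were between.

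TAGLN, the actin-binding protein transgelin of smooth muscle, read 10.69 in PBSHMS and 7.63 in RT4P and was undetected in RT4v6, at least 47.5-fold higher in the fusion line. MYLK, the kinase that switches on smooth muscle and non-muscle myosin, read 8.74 in PBSHMS and 5.45 in RT4P and was undetected in RT4v6, at least 12.3-fold higher. ACTG2 and ACTA2, the smooth muscle actins, were at least 9.38-fold and 8.23-fold higher, with ACTA2 at 9.56, 6.52 and 7.93 in PBSHMS, RT4v6 and RT4P. CALD1, the actin and myosin binding protein caldesmon, read 9.64, 5.22 and 9.58, so here RT4v6 was the low sample. PALLD, FHL2 and TPM1, which organise actin bundles, were 7.52-fold, 3.58-fold and 4.33-fold higher. Among less muscle-specific members, ACTN1, ACTN4 and ZYX, parts of stress fibres and focal adhesions, were 2.35-fold, 2.24-fold and 2.16-fold higher, and TAGLN2, MYH10 and MYL6 differed by 0.05, 0.01 and 0.35.

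The list of mesenchymal transition genes had 7 of 16 members measured, and the higher ones were mostly those already named. CDH2, TAGLN, ACTA2 and TGFBI passed 2-fold upwards, and 0 members did so downwards. TGFBI, a secreted matrix protein induced by TGF-beta, read 8.01 in PBSHMS and 7.36 in RT4P and was undetected in RT4v6, at least 7.45-fold higher. VIM, the intermediate filament vimentin, read 7.36 and 7.52, and SNAI2, a repressor of epithelial genes, differed by 0.59. The list median of 2.90 rests on few genes, and among members detected on all 6 arrays it was 0.59. Over all 16 members, with no detection filter, it was 0.07. Of 27 cadherin and junction genes, 0 were higher and 2 lower, with a median of 0.12. Those were GJA1, the gap junction protein connexin 43, at 6.44 and 7.67, and CLDN1, the tight junction protein claudin 1, at 12.07 and 13.13. E-cadherin, CDH1, was detected on both arrays and differed by less than 2-fold.

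Targets of YAP, a factor that responds to cell tension, had 4 of 11 members higher, against 3.5% of all genes, and 1 lower. Their median was 0.78. That median was 0.25 at a detection p-value under 0.05 and 0.23 with no detection filter. CCN1, a secreted matrix-associated signal, read 9.67 and 6.88, 6.92-fold apart. ANKRD1, a nuclear ankyrin repeat protein, read 7.39 in PBSHMS and was undetected in RT4v6, at least 4.83-fold higher. NT5E, the surface enzyme CD73 that makes adenosine, went the other way at 7.05 and 9.06. CAV1 and CAV2, the coat proteins of caveolae, were at least 5.08-fold and 2.36-fold higher, with CAV1 at 7.46 in PBSHMS and 5.57 in RT4P. They belong to the list of annexins and membrane fusion proteins. In that list 4 of 18 were higher, against 3.5% of all genes, and 0 lower. The list median of 0.28 became 0.03 with no detection filter and −0.0018 among members detected on all 6 arrays. The widest member was ANXA3, annexin A3, at 9.75 in PBSHMS and 8.34 in RT4P and undetected in RT4v6, at least 24.8-fold higher. Of this pair, ANXA3 and CAV1 were detected on the PBSHMS array only, and so were included through the line where they are high.

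Regulators of cell death were mixed. Of 30 BCL2 family and caspase genes, 4 were higher and 2 lower, with a median of −0.06. FAS, the death receptor CD95, read 6.64 in PBSHMS and 5.59 in RT4P and was undetected in RT4v6, at least 2.89-fold higher in the fusion line. BCL2L1, the anti-death protein BCL-XL, read 11.07 and 9.90, a 2.25-fold difference. BID, a death signal carrier between receptors and mitochondria, and BCL2L13 were 2.85-fold and 2.60-fold higher, but both lie in the stretch of chromosome 22 described below, and a second probe of BID pointed the other way. CASP1, the inflammatory caspase, read 5.47 and 7.54, 4.19-fold lower, with 7.80 in RT4P. Of 24 Ras, Myc and IAP family genes, 0 were at 2-fold in either direction, with a median of −0.06.

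Urothelial differentiation showed no shared direction. Of 23 luminal genes, 3 were higher and 3 lower, with a median of 0.34. UPK3A and UPK1B, uroplakins of the urothelial plaque, were 3.09-fold and 2.32-fold higher, with UPK1B at 8.81, 7.60 and 7.60 in PBSHMS, RT4v6 and RT4P. KRT20, a keratin of umbrella cells, read 6.54 and 8.48, and CYP4B1, a urothelial cytochrome, read 10.11 and 11.79. These were 3.84-fold and 3.22-fold lower. PSCA, a surface antigen of luminal cells, was 3.32-fold lower, with 8.09 in RT4v6 and 5.34 in RT4P, so RT4v6 was the highest of the live lines. Of 10 basal and squamous genes, KRT80, an epithelial keratin, was higher at 10.94 against 7.20, and TP63 read 10.85 and 11.82.

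Among secreted products, SPINK1 was the 1 of 15 epithelial defence genes that was higher, and 3 were lower, LCN2 and DEFB1 among them. LCN2, the iron-sequestering lipocalin, read 6.65, 8.64 and 10.04 in PBSHMS, RT4v6 and RT4P. DEFB1, beta-defensin 1, was 2.82-fold lower. Matrix proteases and their inhibitors were 3 higher and 4 lower of 27. MMP10, stromelysin 2, read 8.39 in RT4v6 and 7.97 in RT4P and was undetected in PBSHMS, at least 8.77-fold lower, and MMP1, interstitial collagenase, was at least 7.59-fold lower. The inhibitors TIMP3 and TIMP2 were higher, with TIMP3 at 10.14, 7.91 and 6.63 and TIMP2 at 7.84, 5.87 and 6.01 in PBSHMS, RT4v6 and RT4P. The widest of the higher members was itself a protease, ADAMTS1, which cleaves matrix proteoglycans, at 8.28, 5.97 and 8.58, a 4.98-fold difference, so proteases were found in both directions. Among surface proteins, MUC1, the mucin of luminal membranes, was 4.70-fold lower and MALL, a raft protein, 5.33-fold higher.

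Growth factor and patterning genes gave scattered differences. In the insulin-like growth factor axis 2 of 11 were higher and 1 lower, with IGFBP4, another binding protein, at 6.74 and 8.59, opposite to IGFBP5. DKK1, a secreted inhibitor of Wnt receptors, read 11.82, 9.33 and 9.69 in PBSHMS, RT4v6 and RT4P, a 5.60-fold difference. DKK3 was at least 2.48-fold higher, and WNT5A, a ligand of the non-canonical Wnt pathway, was at least 3.93-fold lower. The Wnt list had 2 of 20 higher and 1 lower in all. In the list of FGF receptors and feedback genes 1 of 15 was higher and 3 lower, around a median of −0.07. ETV4 and ETV5, factors downstream of FGF receptors, were at least 4.16-fold and 2.20-fold lower, and FGFBP1, a carrier of FGF ligands, was 2.43-fold lower. DUSP4, a phosphatase that acts on MAP kinases, was 2.06-fold higher. Of 20 HOX genes and cofactors, 5 were higher, among them HOXB5, HOXC13, HOXB8 and HOXB2, and HOXD1 was lower. Of the 15 stem cell associated genes, ALDH1A3 was higher, and KIT, the stem cell factor receptor, and SOX2, a pluripotency factor, were lower. KIT read 7.72 and 9.23, and SOX2 was undetected in PBSHMS, at least 2.05-fold lower.

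Proliferation genes were close between the lines. Of 37 G2/M and mitosis genes, 0 were at 2-fold and the median was −0.01. Of 38 G1/S and replication genes, 2 were higher, CCND2 and CDC45, the latter a replication helicase factor that lies in the chromosome 22 stretch and read 10.48 and 9.48. CDKN2C, the p18 inhibitor of CDK4 and CDK6, was at least 2.10-fold higher, and CDKN1A, the p21 inhibitor, read 12.52 and 11.99 and so differed by 0.53. Among immediate early genes 4 of 22 were higher and 1 lower, with JUN at 9.19 and 6.35, EGR1 at 7.36 and 5.94 and FOS at 6.42 and 8.06. JUN and FOS, the partners of the AP-1 factor, thus differed in opposite directions.

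Lipid synthesis genes leaned lower in PBSHMS, and aldehyde metabolism was mixed. Among 30 cholesterol and fatty acid synthesis genes PBSHMS was 2-fold or more lower for 4, against 2.5% of all genes, and higher for 0. Their median was −0.49, and 25 lay below 0. INSIG1, a sterol-regulated brake on SREBP processing, read 9.57 in PBSHMS and 10.76 in RT4P and was 2.69-fold lower than in RT4v6. LSS, lanosterol synthase, a gene of chromosome 21, was 2.17-fold lower, and ACACA, acetyl-CoA carboxylase, was 2.12-fold lower, with RT4v6 the highest of the live lines. Of 8 aldo-keto reductases, 4 were lower, against 2.5% of all genes, and 0 higher. AKR1C4, AKR1C3 and AKR1C2, which reduce steroids and aldehydes, were 3.22-fold, 2.45-fold and 2.26-fold lower, and AKR1B1, aldose reductase, was 2.00-fold lower. The AKR1C genes are close copies whose probes can share transcripts. Among aldehyde and retinoid metabolism genes, 2 of 23 were higher and 3 lower, around a median of −0.29. Beside ALDH1A3, the retinoid-induced RARRES1 was 3.54-fold higher, and the mitochondrial enzymes ALDH4A1 and ALDH6A1 were 4.48-fold and 2.20-fold lower beside ALDH3B2.

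Other metabolic lists gave no shared direction. Among NRF2 targets 1 of 24 was higher and 2 lower, with HMOX1, heme oxygenase 1, at 9.22 and 6.96 and PGD, an enzyme of the pentose phosphate pathway, at 7.92 and 9.39. Among hypoxia and glycolysis genes 1 of 33 was higher and 3 lower. ANGPTL4, an inhibitor of lipoprotein lipase, read 9.05 and 6.07, while SLC2A1, the glucose transporter GLUT1, read 9.33 and 10.46. The amino acid transporters SLC38A4 and SLC7A8 were 7.05-fold and at least 4.53-fold lower. Of 35 oxidative phosphorylation genes 0 were at 2-fold, with a median of −0.09, and of 34 ribosomal protein genes 1 was, with a median of 0.08.

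**Figure D4:**
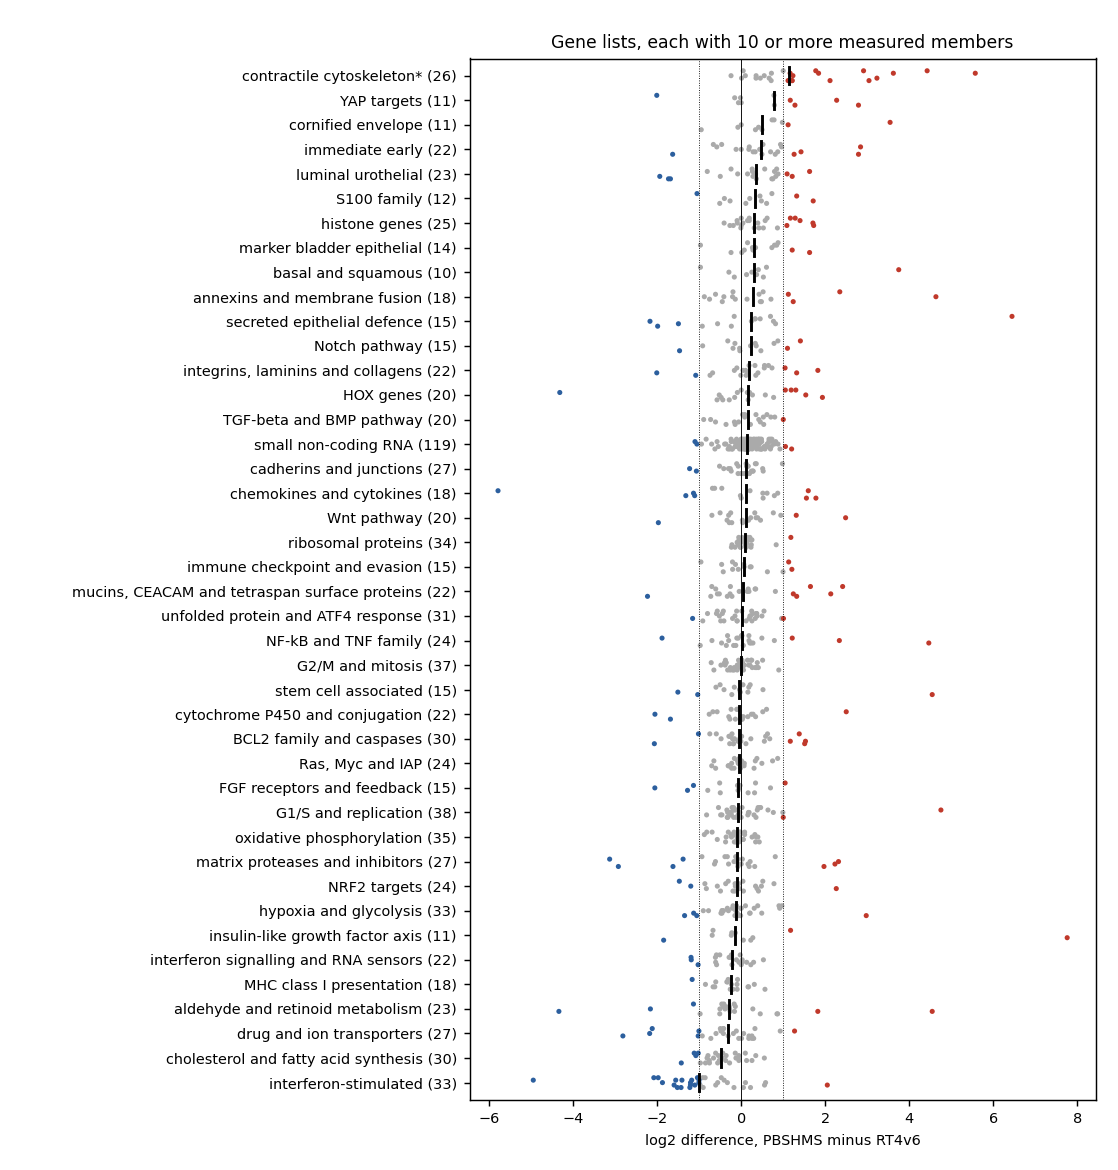
Log2 difference, PBSHMS minus RT4v6, of each measured member of the gene lists shown, each with at least 10 measured members (number in brackets), with a black tick at the list median and dotted lines at 2-fold. Contractile cytoskeleton genes sit furthest right with a median of 1.14, and interferon-stimulated genes furthest left with −1.0. The asterisk marks the contractile list, which was added after values of this pair were seen. The other lists were chosen with earlier results of these data known.

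Differences were also shared by genes that lie next to each other. Measured genes were ordered along each chromosome in RefSeq GRCh38.p14, and runs were found with a running median over 25 genes. A higher stretch needed a running median of at least 1, and a lower one of at most −0.5. The cut-off for lower stretches was thus milder, so milder higher stretches would not be listed. These stretches were looked for after the differences had been seen. On chromosome 22, 59 of 264 measured genes were at least 2-fold higher in PBSHMS (22.3%, against 3.5% of all genes). They gathered at both ends of the measured order. In the stretch from OR11H1 to TMEM191C, 43 of 48 genes lay above 0 and 29 were at 2-fold, with a median of 1.28. In the last stretch, from SELENOO to RABL2B, 16 of 16 lay above 0 and 13 were at 2-fold, with a median of 1.24.

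Named examples were spread along both chromosome 22 stretches. LZTR1, a regulator of Ras protein turnover, differed by 2.20, CRKL, a signalling adaptor, by 1.47, and UFD1, a partner of the segregase VCP, by 1.27. In the last stretch PLXNB2, a semaphorin receptor, differed by 1.67 and NCAPH2, a condensin subunit, by 1.47. The 48-gene stretch had a median of 0.67 for PBSHMS minus RT4P and of −0.54 for RT4v6 minus RT4P, so the lines lay on opposite sides of the parent, and RT4P-BSE2 minus RT4P was 0.00. The last stretch gave 0.69, −0.46 and 0.18. These medians share the RT4P array and are set side by side only.

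Chromosomes 21 and 3 held stretches in the other direction. On chromosome 21, 14 of 121 measured genes were at least 2-fold lower (11.6%, against 2.5% of all genes), with a median of −0.49 over the chromosome. From URB1 to RIPK4, 42 of 49 genes lay below 0 and 9 were at 2-fold, with a median of −0.61. BRWD1, a bromodomain protein, ETS2, a transcription factor, and TMEM50B differed by −1.66, −1.51 and −1.20 there. The median was −0.51 for PBSHMS minus RT4P and 0.12 for RT4v6 minus RT4P, so PBSHMS was the line that left the parent. On chromosome 3, 14 of 15 genes from RABL3 to PARP9 lay below 0, with a median of −0.73 and 6 at 2-fold. Chromosome 17 had no stretch past the cut-offs, but 39 of its 658 genes were at least 2-fold lower (5.93%), with a median of −0.24. Its median was 0.003 for PBSHMS minus RT4P and 0.23 for RT4v6 minus RT4P, so RT4v6 was the line that differed from the parent. In the other direction, 6.00%, 6.27% and 6.54% of genes on chromosomes 5, 8 and 18 were at least 2-fold higher, against 3.5% of all genes. Without the genes of chromosome 22, 424 genes were higher and 340 lower in PBSHMS. The arrays measured RNA and hold no measure of DNA copy number.

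**Figure D5:**
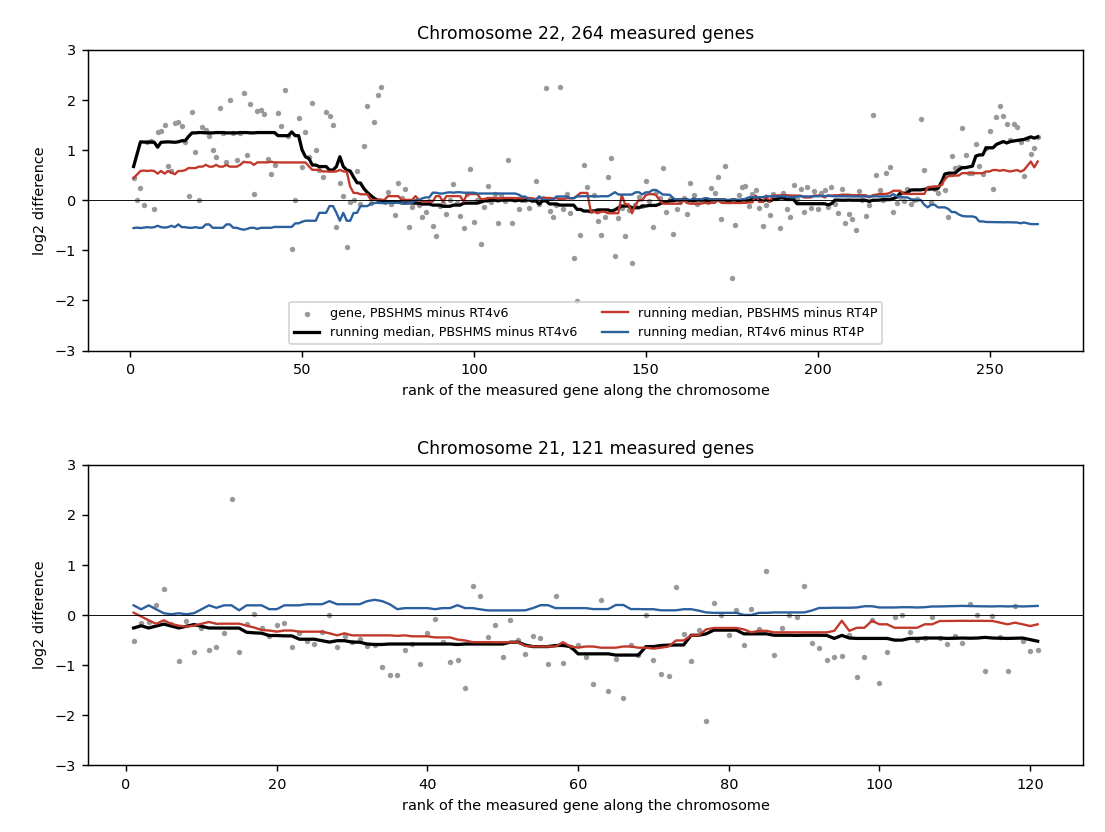
Log2 differences of measured genes in order along chromosomes 22 (264 genes) and 21 (121 genes), with grey points for PBSHMS minus RT4v6 and running medians over 25 genes for PBSHMS minus RT4v6 (black), PBSHMS minus RT4P (red) and RT4v6 minus RT4P (blue). At both ends of chromosome 22 the red line lies above 0 and the blue line below it, and on chromosome 21 the black and red lines lie mostly below 0.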

How the data were processed

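RNA of the 6 samples was measured on Illumina HumanHT-12 version 4 arrays, 1 per sample, per the labels, and samples were grouped by title. The authors deposited non-normalized signal intensity for 47322 probes with a detection p-value for each, per the file headers, and also processed intensity values, whose median is 104.4 on each array. The submitters' processing notes name GenomeStudio, with no version and no genome build. From the deposited intensity, the neqc function of limma 3.58.1 in R 4.3.3 removed background (normexp, informed by the detection p-values, offset 16), applied quantile normalization across the 6 arrays and gave log2 values. Later steps ran in Python 3.11.15. Probes detected numbered 15788 for PBSHMS, 16711 for RT4v6 and 14749 to 17593 over all arrays, and the number of arrays limits the precision. Each gene was read from its brightest detected probe over the 6 arrays, and where raising an undetected side would have reversed a difference it was taken as 0. Of 34694 gene names, 17762 were current RefSeq symbols, 2876 matched an older symbol, 14029 were kept and 27 had become dates.

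No test was run. The gene sets and their members were chosen with earlier results of these data known. The genes named are the 20 with the widest differences per direction, at a log2 level of at least 8 with no detected probe opposing, up to 4 per list, and detected cell markers. Other list members and neighbouring genes named here were chosen after their values were seen. The calculation was tested on simulated arrays. The 10 alternatives were other between-array normalizations, no background correction, an offset of 50, other detection filters, the mean over probes and the authors' processed values. Some results are not reported here. Y-linked genes, XIST and TSIX were left out. Genes with common germline deletions and HLA-DRB genes were passed over in the naming but were not removed from the counts.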

Additional observations from a re-analysis of the deposited data

How the results depend on the processing

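Under no background correction, an offset of 50 and the authors' processed values, genes at least 2-fold higher numbered 214, 316 and 226 against 483, and genes at least 2-fold lower 138, 212 and 145 against 345. The interferon-stimulated median of −1.0 became −0.60 without background correction and −0.61 with the authors' values. Of 65 list and stretch medians, 17 turned sign under at least 1 alternative, in 36 cases, and in 31 of these the reported median lay within the probe SD of 0.27 around 0. The other 5 were those of the metallothioneins (0.36) and annexins (−0.0018) among genes detected on all 6 arrays, of B cell markers at a detection p-value under 0.05 (0.10) and without a filter (0.0090), and of endothelial markers without a filter (0.024). The cause was not tested. In 33 cases a median moved by more than that SD with the sign kept. In 2 of those 31 cases the shift was also larger than the SD, both for the secreted epithelial defence genes, from 0.24 to −0.17 among genes detected on all 6 arrays and to −0.05 without a filter. Of 159 named genes at 2-fold, 102 remained there without background correction, 126 with an offset of 50 and 105 with the authors' values, and all 159 kept their direction under these 3. With no between-array normalization 49.9% of genes at 2-fold were higher, against 58.3%, and the median of all genes shifted to −0.06. No paired analysis was possible because each group has 1 array and the labels give no replicate numbers. With 1 array per line, biological and technical spread cannot be told apart, and dim genes give bounds only.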

Other observations

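Histone genes were measured for 25 members, of which 6 were at least 2-fold higher in PBSHMS, against 3.5% of all genes. Of the 25, 0 were lower, and the median was 0.31. H2BC5 and H2AC6, core histones of the chromosome 6 cluster, read 9.12 and 9.01 in PBSHMS and 7.40 and 7.31 in RT4v6, so they were 3.30-fold and 3.26-fold higher, and RT4P lay between at 8.07 and 7.98. With no detection filter the histone median was 0.03. Among S100 calcium-binding proteins 2 of 12 were higher and 1 lower. S100A10, the partner of annexin A2, read 13.01 and 11.30, a 3.28-fold difference. S100A8, a subunit of the inflammatory protein calprotectin, was undetected in PBSHMS and at least 2.07-fold lower, with RT4P at 8.26.

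Metal and xenobiotic genes were mostly lower or mixed. Of 6 metallothioneins, which bind zinc and copper, MT1A and MT1X were at least 2.73-fold and at least 2.28-fold lower, and 0 were higher. CA12, a membrane carbonic anhydrase, read 10.04 and 11.65, with RT4P at 11.47, and was 3.06-fold lower in PBSHMS. CYP2S1, an epithelial cytochrome, read 7.93 and 5.43, a 5.65-fold difference, while CYP4F11, which hydroxylates fatty acids, was 4.15-fold lower. Of 119 small non-coding RNA genes, 2 were higher and 2 lower, with a median of 0.14.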
